A study of Mus musculus with 8 samples.

Results

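The proximal T cell receptor signalling genes are the genes whose products carry a signal from the T cell receptor at the cell surface to calcium, diacylglycerol and the first transcription factors. A list of 40 of them, given by name with earlier results of these data known, was followed out of 47937 genes in the counts table. All 40 passed the filter on low counts, as did 14633 genes in all. Mature CD8 single-positive (CD8SP) thymocytes that were TCRβ+ and MHC-I high were sorted from the thymus of mice aged 6 to 7 weeks, and their total RNA was sequenced in bulk. The 4 Ndrg3TKO libraries came from Ndrg3 fl/fl;Lck-cre+ mice and the 4 Ndrg3ctrl libraries from Ndrg3 +/fl;Lck-cre+ mice. Both groups therefore carried the Cre transgene, which the proximal Lck promoter switches on early in T cell development, and the controls carried 1 floxed allele, so that the comparison is with cells that can lose 1 of their Ndrg3 copies and not with wild-type cells. The libraries held 21126698 to 32668081 counts, the fewest in Ndrg3ctrl 2 and the most in Ndrg3TKO 2, and the labels call the libraries of a group biological replicates.

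When the receptor binds a peptide on an MHC molecule, the kinase Lck phosphorylates the tails of the CD3 and zeta chains, Zap70 docks there and phosphorylates the scaffolds Lat and SLP-76, and phospholipase C gamma then makes the second messengers that open calcium channels and activate protein kinase C theta. Phosphatases, the kinase Csk, lipid kinases and ubiquitin ligases hold the same chain of events in check. In the thymus this machinery reads the affinity of each receptor for self during positive and negative selection.

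The labelled genotype was first set against the targeted gene. Ndrg3 (chr2:156927345-156992056, GRCm38) was read at 79.3, 81.5, 81.2 and 80.9 counts per 1000000 counted reads (CPM, with library sizes scaled by the TMM method) in Ndrg3ctrl 1 to 4 and at 50.4, 48.4, 53.1 and 55.3 CPM in Ndrg3TKO 1 to 4. The groups did not overlap, and the log2 fold change was -0.64 with a standard error (SE) of 0.05 (edgeR quasi-likelihood test, Benjamini-Hochberg adjusted p = 1.04e-05). These are counts over the whole gene, so reads from parts that were not deleted are included. The cells carried the markers of their sort. Cd8a was read at 1307 to 1392 CPM, none of 13 CD8SP markers passed the test, and Cd4 was read at 0.245 to 1.47 CPM. Counts of 4 Y-linked genes were at 340.5 CPM in Ndrg3ctrl 2, 379 CPM in Ndrg3TKO 2 and 416 CPM in Ndrg3TKO 3 and at or under 0.0752 CPM in the other 5 libraries, so both sexes are present and unequally spread.

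None of the 40 genes differed between Ndrg3TKO and Ndrg3ctrl at an adjusted p under 0.05 in the edgeR fit without a block. Of all tested genes, 1.15% did (168 of 14633). At an unadjusted p under 0.05, 4 of the 40 were higher in Ndrg3TKO and none lower, against 10.9% of all tested genes in either direction, so this share is near the background. The 4 were the adaptors Tespa1, Themis and Fyb and the ubiquitin ligase Cbl. DESeq2 called Tespa1 and Themis, against 1.92% of the genes it adjusted, and limma-voom called none of the 40, against 0.998% of all tested genes. With the replicate number added to the edgeR fit as a block, Cbl, Fyb, Tespa1, Themis and Txk were called, against 5.47% of all tested genes. The labels do not say what libraries of the same number share. A p that misses the threshold does not show that a level was equal, so the interval of every member is drawn in the plot of differences.

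The sizes of the differences were small and closely bounded. Over the 40 genes the log2 fold change ran from -0.10 for Lat to 0.23 for Tespa1, with a median of 0.03 beside -0.0033 for all tested genes, and 24 were positive and 16 negative. The median size, without regard to sign, was 0.06 on the log2 scale, against 0.09 for all tested genes and 0.06 for the 6090 tested genes at or above the mean CPM of the lowest member. The 95% interval of a member reached 0.12 to each side as a median and at most 0.16. For 39 of the 40 genes the whole interval lay within 1.25-fold in either direction, the exception being Tespa1, whose interval ran from 1.08 to 1.27-fold. Of the 6090 genes at or above that level, whose median of 81.5 CPM was under the 299.8 CPM of the members, 5489 met the same limit, and of all tested genes 7686.

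**Figure D1:**
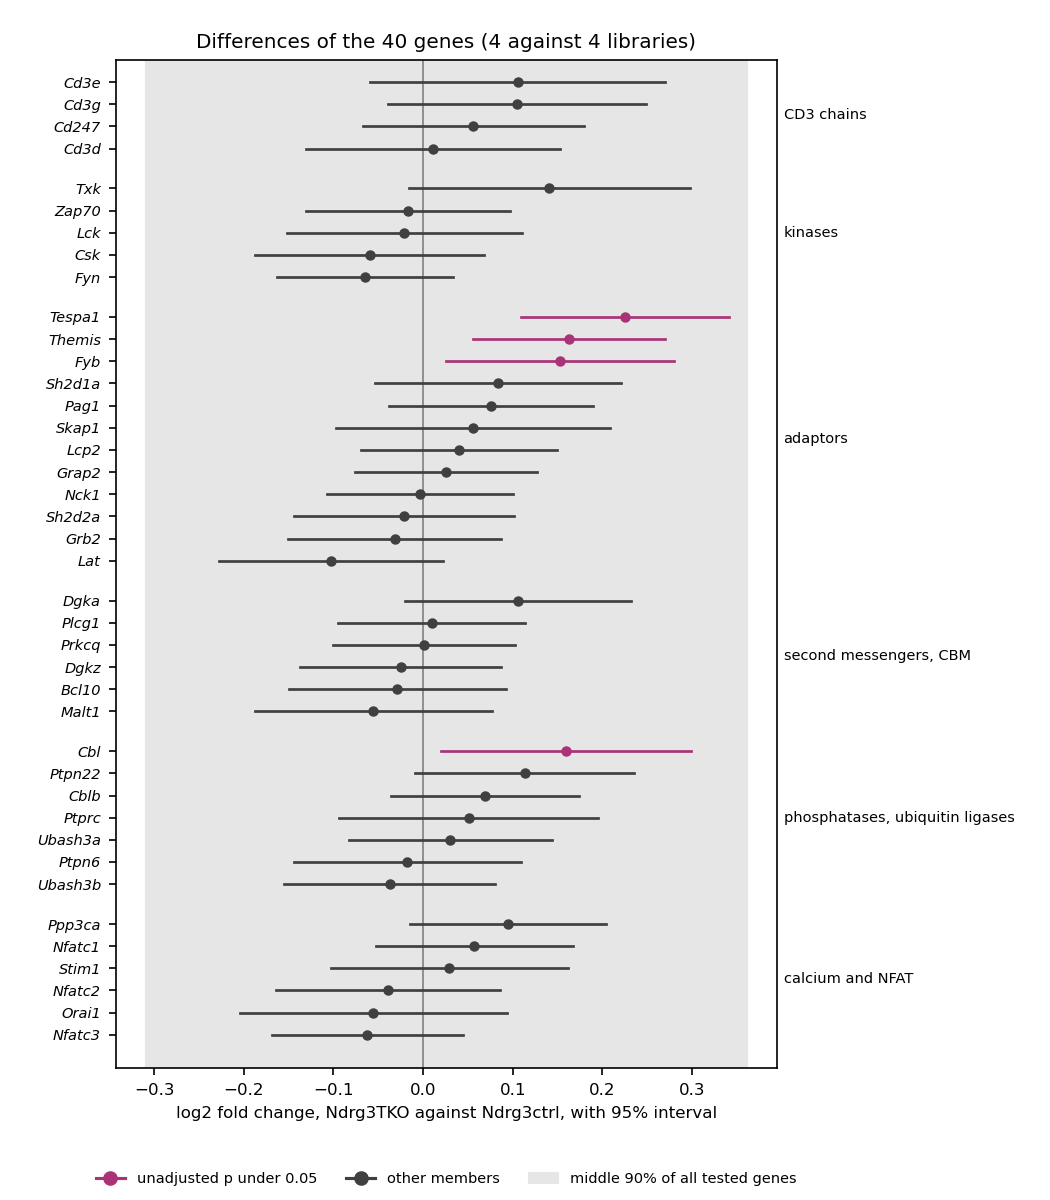
Log2 fold change of each of the 40 genes, Ndrg3TKO against Ndrg3ctrl (4 libraries each), with its 95% interval from the edgeR fit, grouped by role along the vertical axis, over a grey band that holds the middle 90% of all tested genes. Tespa1, Themis, Fyb and Cbl have intervals that lie above 0, and the intervals of the other 36 genes include 0.

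The members were deeply counted. The lowest count of any member in any library was 610 reads, for Sh2d1a, and Ptprc had at least 61248 in each. The spread between libraries of one group, as a coefficient of variation, had a median over the members of 4.66% in Ndrg3ctrl and 4.73% in Ndrg3TKO, against 9.30% and 8.24% over all tested genes. Over the 6090 tested genes at or above the mean CPM of the lowest member, it was 6.106% and 5.125%. In the plot of precision against level, the members lay at levels where the interval was near its narrowest for any gene.

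**Figure D2:**
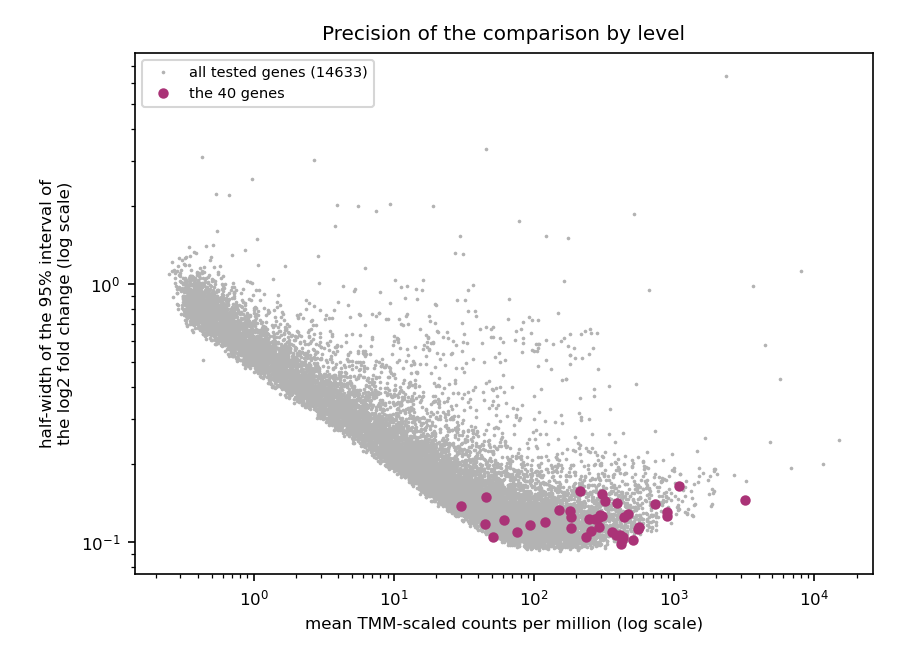
Half-width of the 95% interval of the log2 fold change against mean TMM-scaled CPM, both axes logarithmic, for all 14633 tested genes (grey) and the 40 members (purple). The members lie between 0.0979 and 0.165 on the vertical axis, near the lower edge of the cloud.

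Between genes, levels were compared per kilobase of exon, as TMM-scaled CPM per kilobase. They spanned from 5.47 for Sh2d1a to 304 for Lck as means over the 8 libraries. Lck was the most abundant member and ranked 80 among the 14633 tested genes, followed by Cd3e at rank 101 and Cd3d at rank 128. Dgka, which removes diacylglycerol, and Ptprc, the phosphatase CD45, came next at ranks 167 and 186, ahead of the scaffold Lat at rank 210 and the inhibitory kinase Csk at rank 285. The least abundant were Malt1 at rank 6052, the calcineurin subunit Ppp3ca at 6416, Ubash3b at 7324 and Sh2d1a at 7723. The median member stood at 47.6 CPM per kilobase, against 6.12 for all tested genes. Together the 40 genes took 1.58% to 1.63% of the TMM-scaled counts in Ndrg3ctrl and 1.65% to 1.68% in Ndrg3TKO. In summed CPM this was 16257, 16242, 16164 and 15817 for Ndrg3ctrl 1 to 4 and 16664, 16447, 16795 and 16454 for Ndrg3TKO 1 to 4. The groups therefore did not overlap in the sum. Ptprc had the largest share of any single member, with means of 3153 CPM in Ndrg3ctrl and 3266 CPM in Ndrg3TKO. The median deviation of the members in a library, on the log2 scale, did overlap between the groups and lay between -0.03 in Ndrg3ctrl 4 and 0.04 in Ndrg3TKO 3.

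**Figure D3:**
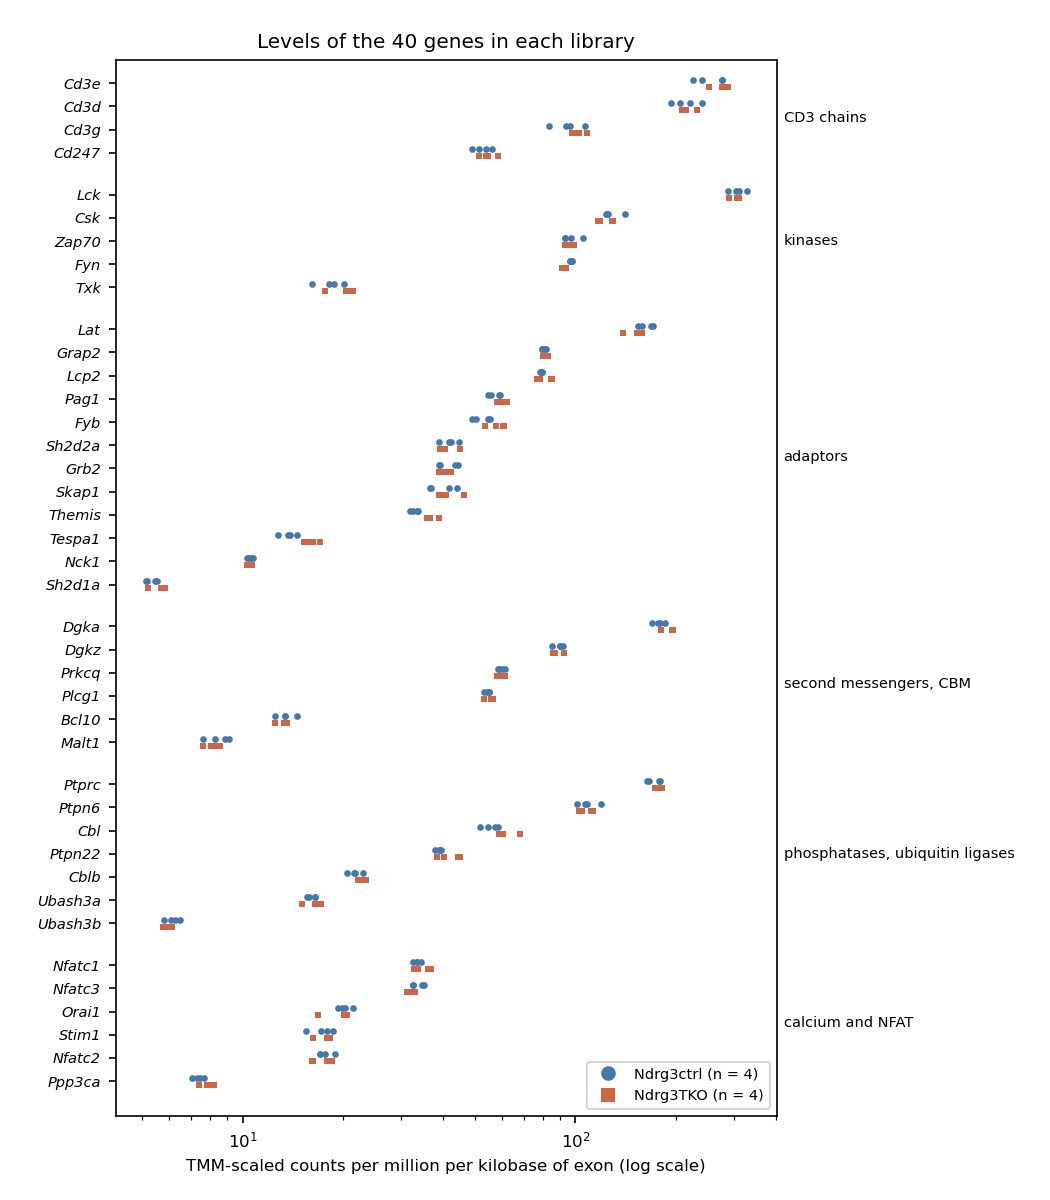
Level of each of the 40 genes in each of the 8 libraries, as TMM-scaled CPM per kilobase of exon on a logarithmic axis, by role and from high to low within a role. Blue circles are Ndrg3ctrl and orange squares Ndrg3TKO, and for most genes both sets of 4 points lie on top of each other beside a range across genes from 5.47 to 304.

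The promoters show one feature that the list was not chosen by. RefSeq promoter sequence (GRCm38.p6) was at hand for 32 of the 40 genes, and the 250 bases before the start site were read. CpG dinucleotides were scarcer there than in most promoters. The ratio of observed to expected CpG had a median of 0.338 in the members and 0.744 in 9499 tested genes with an entry, and 20 of the 32 members (62.5%) lay under a ratio of 0.6, against 30.5% of those genes. Base composition was closer, with a median GC content of 56.0% and 60.0%. Zap70 and Themis are shown as CpG-poor promoters and Cbl as the most CpG-rich of the set. Each sequence is given 5′ to 3′ on the gene's strand, with every CpG in capitals.
Zap70 (chr1:36761548-36761797, plus strand): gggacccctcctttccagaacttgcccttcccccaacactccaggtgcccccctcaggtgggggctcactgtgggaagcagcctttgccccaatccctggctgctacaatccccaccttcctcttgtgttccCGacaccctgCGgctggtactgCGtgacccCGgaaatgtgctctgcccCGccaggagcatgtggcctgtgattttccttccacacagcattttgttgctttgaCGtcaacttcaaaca
Themis (chr10:28668110-28668359, plus strand): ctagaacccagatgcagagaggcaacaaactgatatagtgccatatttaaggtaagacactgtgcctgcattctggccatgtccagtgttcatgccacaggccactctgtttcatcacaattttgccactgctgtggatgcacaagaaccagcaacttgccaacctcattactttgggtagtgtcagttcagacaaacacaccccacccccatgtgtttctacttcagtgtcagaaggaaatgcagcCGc
Cbl (chr9:44234047-44234296, minus strand): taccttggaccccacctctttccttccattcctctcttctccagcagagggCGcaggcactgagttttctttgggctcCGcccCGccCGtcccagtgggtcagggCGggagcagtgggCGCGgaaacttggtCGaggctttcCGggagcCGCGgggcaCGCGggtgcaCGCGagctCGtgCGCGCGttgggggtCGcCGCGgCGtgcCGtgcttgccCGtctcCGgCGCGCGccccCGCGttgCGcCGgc
These hold 6, 1 and 33 CpG dinucleotides, at ratios of 0.296, 0.071 and 1.03, and a GC content of 58.8%, 48.0% and 71.6%. Cd3d and Lcp2 had no CpG in this window, and Lck had a ratio of 0.0514, whereas Orai1 stood at 1.00, Nfatc2 at 0.919 and Prkcq at 0.916. Searched on both strands, the GC box GGGCGG was found in 13 of the 32 members (40.6%) and in 59.5% of the tested genes with an entry, the ETS core CGGAAG in 2 (6.25%, Bcl10 and Ptpn6) and in 27.1%, the RUNX core TGTGGT in 1 (3.12%, Lck) and in 10.9%, and the TATA box TATAAA in 3 (9.38%, Grb2, Nfatc2 and Ptprc) and in 5.84%. The GC box and the ETS core can share letters. A match is a description of the sequence and not of binding.

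The CD3 chains, which pair with the receptor and carry the tyrosine motifs that Lck phosphorylates, all had positive log2 fold changes, and none of the 4 passed the test. Cd3e (chr9:44998740-45009627) was read at 1121, 1123, 982 and 921 CPM in Ndrg3ctrl 1 to 4 and at 1129, 1174, 1128 and 1031 CPM in Ndrg3TKO 1 to 4, with means of 1037 ± 101 and 1115 ± 60.4 CPM (SD, n = 4 each). The Ndrg3ctrl 3 and 4 libraries lay below all others, and Ndrg3ctrl 1 and 2 lay among the Ndrg3TKO libraries. Its log2 fold change was 0.11 ± 0.08 (SE; 95% interval -0.06 to 0.27, edgeR adjusted p = 0.666).

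Cd3d (chr9:44981786-44987339) was read at 401, 435, 375 and 350.2 CPM in Ndrg3ctrl and at 378, 420.4, 389.8 and 385 CPM in Ndrg3TKO, and the groups overlapped fully. Its means were 390.3 ± 36.2 and 393 ± 18.6 CPM, and its log2 fold change was 0.01 ± 0.07 (interval -0.13 to 0.15, edgeR adjusted p = 0.973). Cd3g (chr9:44969572-44980431), their neighbour on chromosome 9, was read at 306, 348, 314 and 273 CPM in Ndrg3ctrl and at 319, 354, 334 and 328 CPM in Ndrg3TKO. Ndrg3ctrl 4 was the lowest of the 8 libraries for Cd3e, Cd3d and Cd3g, and Ndrg3ctrl 2 and Ndrg3TKO 2 were the highest of their groups for all 3. Cd3g had means of 310.2 ± 30.9 and 333 ± 14.8 CPM and a log2 fold change of 0.10 ± 0.07 (interval -0.04 to 0.25, edgeR adjusted p = 0.619).

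Cd247 (chr1:165788681-165877277), the zeta chain, was read at 260.0, 300.1, 287 and 272 CPM in Ndrg3ctrl and at 274, 291, 311 and 287 CPM in Ndrg3TKO, with overlapping groups. Its means were 279.8 ± 17.4 and 291 ± 15.3 CPM and its log2 fold change 0.06 ± 0.06 (interval -0.07 to 0.18, edgeR adjusted p = 0.777). The zeta chain shares 56.4% of its exon bases with Pou2f1 on the opposite strand, and how strand was counted is not given in the sources used here, so reads of both genes may be mixed. Pou2f1 itself had a log2 fold change of 0.08 ± 0.05 (edgeR adjusted p = 0.65). In bulk libraries such as these, fewer cells of a type and less RNA per cell cannot be told apart.

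Among the kinases, 4 of the 5 log2 fold changes were negative and the fifth, of Txk, was positive, and none passed the test. Lck (chr4:129548344-129573641), the Src family kinase that starts the signal from the coreceptor, was read at 906, 959, 842 and 887 CPM in Ndrg3ctrl and at 846, 894, 896 and 905 CPM in Ndrg3TKO. The groups overlapped, with the Ndrg3TKO libraries inside the range set by Ndrg3ctrl 2 and 3. The means were 898 ± 48.5 and 885 ± 26.3 CPM and the log2 fold change was -0.02 ± 0.06 (interval -0.15 to 0.11, edgeR adjusted p = 0.933). Zap70 (chr1:36761798-36782818), which binds the phosphorylated chains and whose promoter is printed above, was read at 279, 315, 277 and 289 CPM in Ndrg3ctrl and at 280.5, 292, 296 and 279 CPM in Ndrg3TKO. The Ndrg3ctrl 2 library was the highest for both kinases. Zap70 had means of 290.2 ± 17.3 and 287 ± 8.46 CPM and a log2 fold change of -0.02 ± 0.05 (interval -0.13 to 0.10, edgeR adjusted p = 0.940).

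Fyn, the other Src family kinase on the list, was the only member whose groups did not overlap with Ndrg3TKO lower. It was read at 421, 427, 425 and 419.6 CPM in Ndrg3ctrl and at 407, 397, 407 and 407 CPM in Ndrg3TKO, and both groups were tight. The difference came to 0.956-fold (interval 0.893 to 1.02, edgeR adjusted p = 0.651). Csk, which phosphorylates the inhibitory tyrosine of Lck and Fyn, had a log2 fold change of -0.06 ± 0.06, with Ndrg3ctrl 2 high at 525 CPM beside 463 to 467 CPM in the other 3 controls. Txk, a Tec family kinase, was read at 199, 177, 206 and 221 CPM in Ndrg3ctrl and at 236, 194, 225 and 231 CPM in Ndrg3TKO. Ndrg3ctrl 2 and Ndrg3TKO 2 were the lowest libraries, and its log2 fold change was 0.14 ± 0.07 (interval -0.02 to 0.30, edgeR adjusted p = 0.523). The edgeR adjusted p of Txk was 0.0422 with the replicate block.

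Of the 12 adaptors, which hold the enzymes together, 8 had positive and 4 negative log2 fold changes. They held both ends of the range over the 40 genes and 3 of the 4 genes at an unadjusted p under 0.05. Lat (chr7:126363824-126369570), the membrane scaffold phosphorylated by Zap70, was read at 428, 472, 439 and 466 CPM in Ndrg3ctrl and at 383, 425, 433 and 439 CPM in Ndrg3TKO. Ndrg3TKO 1 was the lowest and Ndrg3ctrl 2 and 4 were the highest, and the other libraries were mixed. The means were 451 ± 21.3 and 420.1 ± 25.3 CPM and the log2 fold change was -0.10 ± 0.06 (interval -0.23 to 0.02, edgeR adjusted p = 0.564).

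Tespa1 (chr10:130322870-130364111) encodes a thymocyte protein that is needed for efficient positive selection. It was read at 87.3, 80.5, 91.6 and 86.4 CPM in Ndrg3ctrl and at 102, 96.1, 107 and 99.1 CPM in Ndrg3TKO. The highest control lay below the lowest knockout library, so the groups did not overlap. The means were 86.5 ± 4.57 and 101 ± 4.78 CPM, a ratio of 1.17 (interval 1.08 to 1.27), and the log2 fold change was 0.23 ± 0.05 (edgeR unadjusted p = 0.000926, adjusted p = 0.0688). Tespa1 stood on the other side of the threshold with DESeq2 (adjusted p = 0.0161), with no filter on low counts (adjusted p = 0.027) and with Y-linked counts as a covariate (adjusted p = 0.0255). It did so with the replicate block as well (edgeR adjusted p = 0.0015). With 1 library left out at a time its adjusted p was 0.0655 to 0.235 and its log2 fold change 0.19 to 0.25.

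Themis (chr10:28668360-28883818) encodes a T lineage protein that binds Grb2 and the phosphatase SHP-1 and is likewise needed in positive selection. It was read at 391, 373, 394 and 379.6 CPM in Ndrg3ctrl and at 418, 421, 428 and 453 CPM in Ndrg3TKO, again without overlap. The means were 384 ± 9.67 and 430.1 ± 16.1 CPM, a ratio of 1.12 (interval 1.04 to 1.21), and the log2 fold change was 0.16 ± 0.05 (edgeR unadjusted p = 0.00550, adjusted p = 0.183). DESeq2 gave an adjusted p of 0.0384, and edgeR with the replicate block gave 0.0219. Fyb (chr15:6522853-6663313), the adaptor ADAP that links the receptor to integrins, was read at 271, 263, 297 and 294 CPM in Ndrg3ctrl and at 328, 287, 310.3 and 326 CPM in Ndrg3TKO. Its groups overlapped, since Ndrg3TKO 2 lay below Ndrg3ctrl 3 and 4. Fyb had means of 281 ± 17.0 and 313 ± 18.8 CPM and a log2 fold change of 0.15 ± 0.06 (interval 0.03 to 0.28, edgeR unadjusted p = 0.0221, adjusted p = 0.347). Without 1 library its unadjusted p was 0.00674 to 0.0694, and with the replicate block its edgeR adjusted p was 0.0332.

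**Figure D4:**
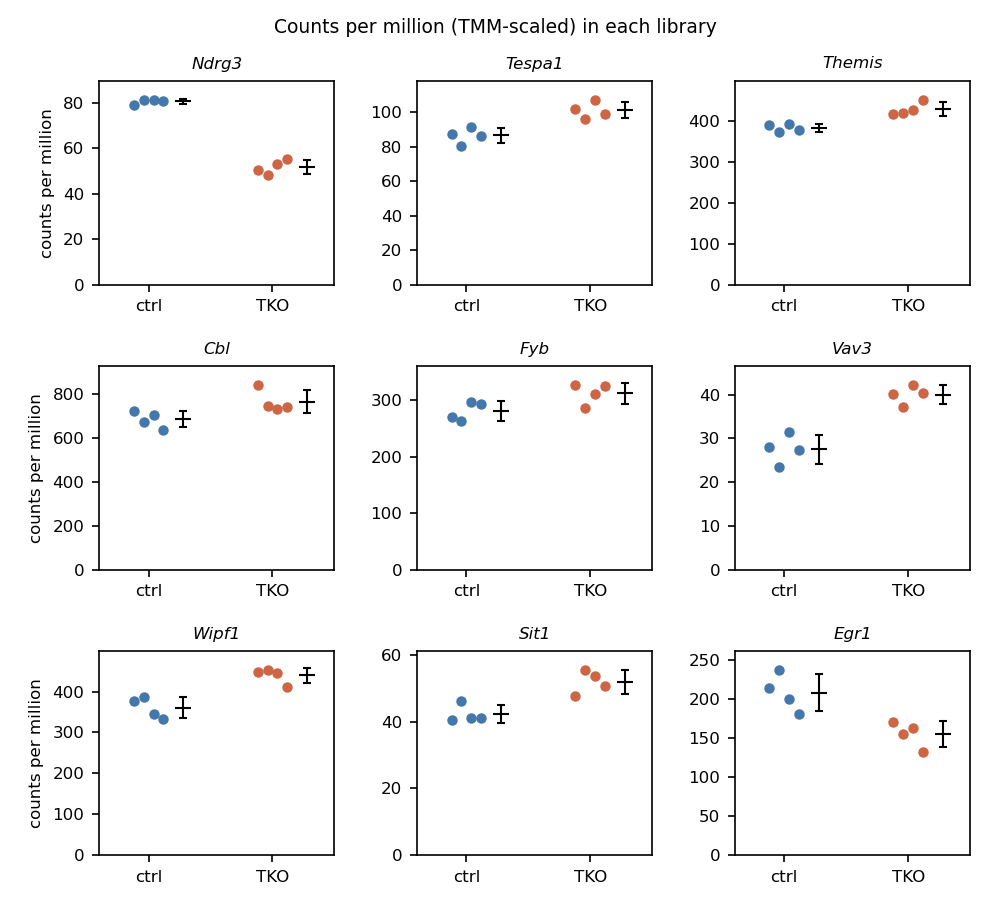
TMM-scaled CPM in each library, on axes that start at 0, for Ndrg3, for the 4 members with an unadjusted p under 0.05 and for the 4 genes of the wider pathway that passed the adjusted threshold. Points are libraries 1 to 4 from left to right and the black mark is the mean ± SD, and the groups are apart for each gene shown but Fyb.

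The other adaptors had log2 fold changes smaller in size than those of Lat and the 3 genes above. The log2 fold change was 0.08 ± 0.06 for Sh2d1a, the adaptor SAP, which shares 26.6% of its exon bases with Tenm1 on the opposite strand. Pag1, the membrane anchor of Csk, had a log2 fold change of 0.08 ± 0.05, and Skap1, the partner of Fyb, at 0.06 ± 0.07. Lcp2, which encodes SLP-76, had a log2 fold change of 0.04 ± 0.05 and Grap2, which encodes Gads and joins SLP-76 to Lat, at 0.03 ± 0.05. Nck1, a link to actin, was read at 49.3 to 51.6 CPM in all 8 libraries and had a log2 fold change of -0.00 ± 0.05. Sh2d2a, an Lck-binding adaptor, had a log2 fold change of -0.02 ± 0.06, and Grb2, which brings the Ras exchange factor Sos to Lat, at -0.03 ± 0.06.

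In the second messenger and CBM group, 3 log2 fold changes were positive and 3 negative. Plcg1, the phospholipase, was read at 416 to 445 CPM over the 8 libraries with a log2 fold change of 0.01 ± 0.05. Prkcq, protein kinase C theta, was read at 411 to 435 CPM with a log2 fold change of 0.00 ± 0.05. For both genes the spread over all 8 libraries was narrow and the groups lay within each other. Bcl10 and Malt1, members of the CBM complex that leads to NF-kB, had a log2 fold change of -0.03 ± 0.06 and -0.06 ± 0.06. The diacylglycerol kinases, which end the signal to protein kinase C, differed in sign. Dgka was read at 856, 810.2, 842 and 885 CPM in Ndrg3ctrl and at 935, 863, 929.5 and 925 CPM in Ndrg3TKO, with Ndrg3TKO 2 among the controls and the other 3 knockout libraries above them. Its log2 fold change was 0.11 ± 0.06 (interval -0.02 to 0.23, edgeR adjusted p = 0.555), beside -0.03 ± 0.05 for Dgkz.

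Of the 7 phosphatases and ubiquitin ligase regulators, which mostly restrain the receptor, 5 had positive log2 fold changes. Cbl (chr9:44142976-44234049), a ubiquitin ligase for activated receptors and kinases, was read at 723, 673, 706 and 637 CPM in Ndrg3ctrl and at 842, 747, 729 and 742 CPM in Ndrg3TKO. The groups did not overlap, but Ndrg3TKO 3 and Ndrg3ctrl 1 were nearly level, and Ndrg3TKO 1 stood far above its group. Cbl had means of 685 ± 37.9 and 765 ± 51.7 CPM and a log2 fold change of 0.16 ± 0.07 (interval 0.02 to 0.30, edgeR unadjusted p = 0.0282, adjusted p = 0.384). Without 1 library its unadjusted p was 0.0241 to 0.128, and with the replicate block its edgeR adjusted p was 0.0445. Cblb, its relative, had a log2 fold change of 0.07 ± 0.05 (interval -0.04 to 0.17).

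Ptpn22, a phosphatase that partners Csk, was read at 263, 256, 268 and 265 CPM in Ndrg3ctrl and at 273, 259.6, 305 and 301 CPM in Ndrg3TKO. Ndrg3TKO 3 and 4 were high and Ndrg3TKO 1 and 2 were near the controls, with a log2 fold change of 0.11 ± 0.06 (interval -0.01 to 0.24, edgeR adjusted p = 0.50). Ptprc, or CD45, which removes the inhibitory phosphate from Lck, was the member with the most counts, at 3009 to 3334 CPM, and had a log2 fold change of 0.05 ± 0.07. Ptpn6, the phosphatase SHP-1, had a log2 fold change of -0.02 ± 0.06. The pair Ubash3a and Ubash3b, which dampen signalling from the receptor, had a log2 fold change of 0.03 ± 0.05 and -0.04 ± 0.05.

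In all, 4 of the 40 genes had groups that did not overlap, namely Tespa1, Themis and Cbl higher and Fyn lower in Ndrg3TKO, against 7.04% of all tested genes (1030 of 14633). Without Ndrg3TKO 2 the count was 10 of the 40, against 12.6% of all tested genes, and without any other single library it was 4 to 6, against 9.29% to 11.6%.

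The calcium and NFAT genes had 3 positive and 3 negative log2 fold changes and none at an unadjusted p under 0.05. Stim1, the calcium sensor of the endoplasmic reticulum, had a log2 fold change of 0.03 ± 0.06, and Orai1, the channel that it opens, at -0.06 ± 0.07. Orai1 was read at 49.2, 44.4, 46.5 and 45.7 CPM in Ndrg3ctrl and at 46.4, 47.2, 46.9 and 38.6 CPM in Ndrg3TKO, and Ndrg3TKO 4 was the lowest library by a wide margin. Ppp3ca, a catalytic subunit of calcineurin, was read at 72.7, 76.2, 70.5 and 74.4 CPM in Ndrg3ctrl and at 73.6, 82.1, 79.7 and 78.1 CPM in Ndrg3TKO. Its log2 fold change was 0.09 ± 0.05 (interval -0.01 to 0.20, edgeR adjusted p = 0.545). The 3 NFAT factors that calcineurin sends to the nucleus had a log2 fold change of 0.06 ± 0.05 for Nfatc1, -0.04 ± 0.06 for Nfatc2 and -0.06 ± 0.05 for Nfatc3. Nfatc1 and Nfatc3 were alike in level, at 34.1 and 32.96 CPM per kilobase, and Nfatc2 was lower, at 17.4.

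**Figure D5:**
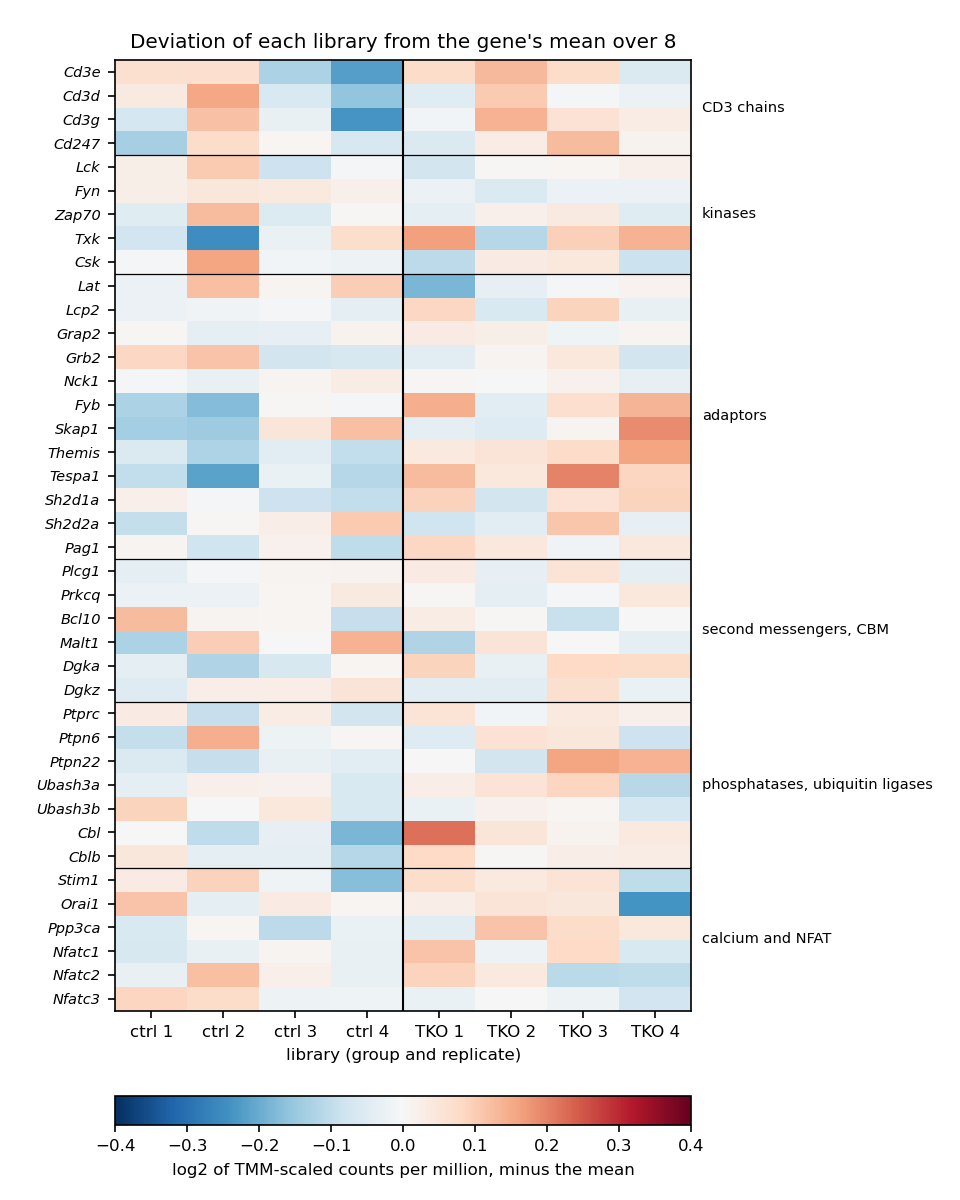
Deviation of each library from the gene's mean over all 8 libraries, as a difference of log2 TMM-scaled CPM, for the 40 genes in rows by role and the 8 libraries in columns with Ndrg3ctrl on the left. Tespa1, Themis and Cbl are below or near 0 on the left and above 0 on the right, and Ndrg3ctrl 2 holds 10 of the highest and 9 of the lowest values of the 40 genes.

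Different libraries stood out in different members. Ndrg3ctrl 2 was the highest of the 8 for 10 members and the lowest for 9. It was the library with the fewest counts and also the only control with high Y-linked counts, at 340.5 CPM. The part of depth or sex in its values was not tested. Ndrg3TKO 1 was the highest for 10 and the lowest for 2, and Ndrg3ctrl 3 was the highest for none and the lowest for 4. With Y-linked counts as a covariate the median log2 fold change of the 40 genes was 0.01 and 1 member, Tespa1, passed the test, when 2.99% of all tested genes did.

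Outside the list, 80 further genes of the pathway were followed and 78 were tested, Gab2 and Rnf128 being too low. Of these 78, 3 rose and 1 fell in Ndrg3TKO at an adjusted p under 0.05 (1.15% of all tested genes did so), and 11 were higher and 5 lower at an unadjusted p under 0.05, which 10.9% of all tested genes were in either direction. The 3 that rose were among the 26 tested kinases, adaptors and exchange factors. Vav3, a guanine nucleotide exchange factor, was read at 28.1, 23.4, 31.4 and 27.3 CPM in Ndrg3ctrl and at 40.2, 37.2, 42.3 and 40.4 CPM in Ndrg3TKO. The groups were far apart, with a log2 fold change of 0.53 ± 0.08 (edgeR adjusted p = 0.00349). Wipf1, the WASP-interacting protein of the actin machinery, was read at 376, 388, 345 and 333 CPM in Ndrg3ctrl and at 449, 453, 445 and 412 CPM in Ndrg3TKO, with a log2 fold change of 0.29 ± 0.06 (edgeR adjusted p = 0.0339). Sit1, a transmembrane adaptor that restrains signalling, was read at 40.6, 46.3, 41.3 and 41.3 CPM in Ndrg3ctrl and at 47.6, 55.6, 53.8 and 50.7 CPM in Ndrg3TKO, with a log2 fold change of 0.30 ± 0.06 (edgeR adjusted p = 0.0426). For Wipf1 and Sit1, too, each knockout library lay above each control. Gab2, listed with the kinases, adaptors and exchange factors but not tested, had the fewest counts of that list, at 0.0664 to 0.301 CPM.

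The gene that fell was Egr1, a transcription factor induced within minutes of receptor signalling and the one with the most counts among the 8 immediate targets. It was read at 214, 237, 199.7 and 181 CPM in Ndrg3ctrl and at 170.0, 155, 162 and 132 CPM in Ndrg3TKO, without overlap, and its log2 fold change was -0.43 ± 0.09 (edgeR adjusted p = 0.0422). Of the 8 targets 5 had negative log2 fold changes, with a median of -0.13, and Nr4a2 had the fewest counts, at 7.41 to 13.0 CPM. Vav3 passed the test with each of the 8 libraries left out in turn (adjusted p 0.00386 to 0.0196), whereas Wipf1, Sit1 and Egr1 each lost it in 6 of the 8. Wipf1 passed only without Ndrg3ctrl 2 or Ndrg3TKO 4, Sit1 only without Ndrg3ctrl 2 or Ndrg3TKO 1 and Egr1 only without Ndrg3ctrl 4 or Ndrg3TKO 1. Over the 8 runs the adjusted p was 0.0163 to 0.121 for Wipf1, 0.0202 to 0.151 for Sit1 and 0.0184 to 0.134 for Egr1.

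No other list of the pathway held a gene past the threshold by edgeR, and their counts at an unadjusted p under 0.05 stand beside the 10.9% of all tested genes. The receptor constant genes and coreceptors were negative for 9 of 9 genes with a median log2 fold change of -0.02, and 1 was at an unadjusted p under 0.05. Cd8a had the most counts of them and a log2 fold change of -0.02 ± 0.06, and Cd28 had the fewest, at 188 to 247 CPM. The 8 other NF-kB arm genes had a median log2 fold change of -0.01 and none at an unadjusted p under 0.05, with the fewest counts for Traf2 (61.0 to 68.2 CPM). Of the 15 other calcium arm genes 2 were higher and 1 lower at an unadjusted p under 0.05, with a median log2 fold change of -0.01, and the fewest counts were those of Rcan1 (6.26 to 9.68 CPM). The 12 tested negative regulators likewise had 2 higher and 1 lower and a median log2 fold change of -0.01, and over the list Rnf128 had the fewest counts, at 0 to 0.113 CPM.

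Markers of other cells were followed beside these values. The CD4 T cell list summed to 7.09 to 11.4 CPM in Ndrg3ctrl and 9.85 to 17.5 CPM in Ndrg3TKO, with the most counts from Il2ra. Means in Ndrg3ctrl and Ndrg3TKO were 4.55 and 6.97 CPM for Il2ra and 3.45 and 4.97 CPM for Foxp3. The rest of that list had lower means in Ndrg3TKO, at 0.667 and 0.563 CPM for Cd4, 0.216 and 0.104 CPM for Zbtb7b and 1.18 and 0.984 CPM for Cd40lg. The double-positive thymocyte list summed to 52.0 to 62.3 CPM in Ndrg3ctrl and 51.4 to 63.7 CPM in Ndrg3TKO, with the most counts from Cd1d1. None of the genes of either list passed the edgeR test. Dntt, the terminal transferase of immature thymocytes, was read at 18.7, 14.6, 14.8 and 14.1 CPM in Ndrg3ctrl and at 25.4, 19.1, 21.02 and 19.4 CPM in Ndrg3TKO, without overlap (log2 fold change 0.45 ± 0.11, edgeR adjusted p = 0.0783). In the gamma delta T cell list, 1 of 5 genes rose, Tcrg-C1, from 0.536 to 1.13 CPM in Ndrg3ctrl to 3.48 to 5.44 CPM in Ndrg3TKO (log2 fold change 2.72 ± 0.24), and 1 was at 0 in every library. That list summed to 11.8 to 14.5 CPM in Ndrg3ctrl and 15.5 to 17.9 CPM in Ndrg3TKO, with the most counts from Trdc. Trdc itself had means of 12.1 CPM in Ndrg3ctrl and 11.9 CPM in Ndrg3TKO, and Sox13 of 0.285 and 0.167 CPM, so the difference in the sums was that of Tcrg-C1. In the NK or NKT cell list, 1 of 5 genes rose, Klrb1c, from 0.11 to 0.638 CPM to 1.47 to 2.04 CPM (log2 fold change 2.62 ± 0.36), and 2 of its genes were at 0 in every library. The NK or NKT list summed to 0.329 to 1.03 CPM in Ndrg3ctrl and 1.57 to 2.24 CPM in Ndrg3TKO, where most of it was Klrb1c. Zbtb16 of the same list lay the other way without overlap, at 0.146 to 0.335 CPM in Ndrg3ctrl and 0.0314 to 0.092 CPM in Ndrg3TKO, and was too low to be tested. The B cell list summed to 253 to 312 CPM, nearly all of it Ighm, with 5 of its 7 genes under 1 CPM. The other one, Cd79b, was read at 10.9, 12.5, 10.9 and 13.01 CPM in Ndrg3ctrl and at 8.51, 9.19, 8.07 and 9.11 CPM in Ndrg3TKO, without overlap (log2 fold change -0.43 ± 0.10, edgeR adjusted p = 0.0529). All 7 myeloid markers were under 1 CPM, the thymic epithelial list summed to 1.20 to 3.04 CPM, and 3 of 3 erythroid markers were at 0, which allows up to 0.0918 to 0.142 CPM in a library. The part of these cells in the differences of Tespa1, Themis, Vav3, Wipf1, Sit1 and Egr1 was not tested.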

How the data were processed

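Bulk RNA of sorted CD8SP thymocytes was measured in 8 libraries, 4 per group, and groups and replicate numbers were taken from the labels. The authors used cutadapt for trimming, STAR for alignment to GRCm38.p4 and featureCounts for counting per gene. The deposited values are raw counts of 47937 genes, not normalized, and all 8 value columns were used. How strand and reads with several matches were counted is not given in the sources used here.

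Names, positions and exon lengths came from GENCODE M21 (GRCm38), by Ensembl identifier, for 98.7% of genes. The test was edgeR's quasi-likelihood F test (version 4.0.16 in R 4.3.3 with limma 3.58.1, using filterByExpr, TMM factors, a robust glmQLFit and glmQLFTest), Ndrg3TKO against Ndrg3ctrl, with Benjamini-Hochberg adjustment over 14633 genes and a threshold of 0.05. The scripts were tested on simulated data. No covariate was used. The study's methods name DESeq2, which was run as an alternative (1.42.0). Others were limma-voom, DESeq2 size factors, no filter, at least 10 counts in every library, the replicate block, Y-linked counts as a covariate, and each library left out. The standard error is of the log2 fold change and intervals are 95%. Every member is named, with full values for the CD3 chains, Lck, Zap70, Lat and any member at an unadjusted p under 0.05. The intervals and the floor of 3 counts per library cover counting error or the spread between these samples only, since PCR copies cannot be told from separate molecules here. Libraries of one group differed by a chi-square of 9.26 to 32.3 per gene, so none repeats another. The 40 genes, the wider lists, the marker lists and the motifs were chosen with earlier results of these data known. Values of single genes with the most counts in some wider lists are not reported here.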

Additional observations from a re-analysis of the deposited data

Results flagged for a closer look

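In 112 groups of 4 libraries (56 measures in 2 groups), the gap of the highest or lowest library to its nearest neighbour was compared with Dixon's limit, and 8 exceeded it, beside 5.6 that chance gives at 1 in 20. The 8 values were as follows. Fyn, a Src family kinase, was low in Ndrg3TKO 2 at 397 CPM. Csk, which restrains the Src family kinases, was high in Ndrg3ctrl 2 at 525 CPM. Dgka was low in Ndrg3TKO 2 at 863 CPM, and Dgkz, the other diacylglycerol kinase, was high in Ndrg3TKO 3 at 577.5 CPM. The ubiquitin ligase Cbl was high in Ndrg3TKO 1 at 842 CPM, far from the other 3 knockout libraries. The calcium channel Orai1 was low in Ndrg3TKO 4 at 38.6 CPM. The adaptor Sit1 was high in Ndrg3ctrl 2 at 46.3 CPM, which placed this control nearest to the knockout libraries. The summed CD4 T cell markers were low in Ndrg3ctrl 4 at 7.09 CPM.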

How the results depend on the processing

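With DESeq2 size factors, at least 10 counts in every library, or limma-voom, 0 of the 40 genes were called, as in the edgeR fit reported, and the median log2 fold change of the 40 genes was positive in all 15 alternatives (lowest 0.00967, with the Y-linked covariate). With no filter on low counts 274 genes were called in all and 1 member, Tespa1. DESeq2 called 309 in all and 2 members, Tespa1 and Themis. With Y-linked counts as a covariate 437 genes were called in all, 1 member and 8 genes of the wider lists, and Cd3d changed sign, to -0.0217. The shallowest member was Sh2d1a, with 610 counts in its lowest library.

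The replicate numbers 1 to 4 occur in both groups. Deviations of same-numbered libraries correlated at 0.181, 0.415, -0.055 and 0.301, so 1 pair did not deviate together. Of the 8 libraries, 6 correlated best with their own number, a hint from the data and not the design. The pair at -0.055 joined Ndrg3ctrl 3, at 0.0681 CPM of Y-linked counts, and Ndrg3TKO 3, at 416 CPM. Over all numbers, pairs with high Y-linked counts in only 1 library correlated at -0.328 to -0.055. Pairs with such counts in both libraries or in neither correlated at -0.0144 to 0.415. The part of sex in these correlations was not tested. With the replicate block 800 genes (5.47% of those tested) were called in all, 5 members (Cbl, Fyb, Tespa1, Themis and Txk) and 11 genes of the wider lists.

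With 1 library left out at a time, 90 to 158 genes were called in all, 0 of the 40 members, and 1 to 4 genes of the wider lists. Members whose groups did not overlap numbered 4 to 10, beside 9.29% to 12.6% of all tested genes with 4 against 3 libraries, and both were highest without Ndrg3TKO 2. Log2 fold changes near 0 changed sign in 12 members, which ranged from -0.0387 to 0.0649 for Cd3d, -0.0511 to 0.0101 for Lck, -0.0382 to 0.0225 for Zap70, -0.0155 to 0.00648 for Nck1, -0.0018 to 0.105 for Skap1, -0.0634 to 0.00967 for Sh2d2a, -0.00785 to 0.0243 for Plcg1, -0.0133 to 0.0141 for Prkcq, -0.0645 to 0.0124 for Bcl10, -0.0503 to 0.0277 for Ptpn6, -0.0213 to 0.0665 for Stim1 and -0.0818 to 0.01 for Orai1. The causes were not tested. Of 600 pairs of a member and an alternative, 568 kept direction and side of the threshold. Ndrg3 kept both in every alternative.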
